A study of Mus musculus with 58 samples.

Results

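Potassium channel genes were followed through mouse striatum in all count tables of the series. The members were the genes whose symbols start with Kcn, a letter from a to v and a digit, together with the KChIP (Kcnip) and BK (Kcnma, Kcnmb) genes, leaving out Kcng1, Kcne2 and antisense or pseudogene entries. There were 88 such genes among the 54532 of the RNA-seq tables and 87, all but Kcnj1, among the 18411 of the footprint and lysate RNA tables. By symbol they comprised 8 Kv1, 2 Kv2, 4 Kv3 and 3 Kv4 genes, 9 silent Kv genes, 5 Kv7 genes, 8 genes of the EAG, ERG and ELK group, 4 Kcne and 4 KChIP auxiliary subunits, 15 inward rectifiers, 14 2-pore-domain genes, 4 SK and IK genes, 5 BK genes and 3 Slack, Slick and Slo3 genes.

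Potassium channels set the resting potential and repolarise neurons after a spike. In striatal spiny projection neurons, inward rectifiers of the Kir2 group hold the resting membrane hyperpolarised, and the A-type Kv4 and Kv1 currents delay the first spike. Kv7 channels carry the M-current, Kv3 channels let fast-spiking interneurons fire at high rates, and astrocytes buffer extracellular potassium through Kir4.1. Silent Kv subunits form no channel alone and modify Kv2 channels with which they assemble.

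The RNA-seq comprised 32 striatal libraries, 4 in every group of 1 line, 1 genotype and 1 sex. In the 3g line, del/+ mice carry heterozygous premature stop codons in Taok2, Sez6l2 and Mvp, introduced together with CRISPR/Cas9. In the 16p11.2 line, 16p11.2 del/+ mice lack 1 copy of the whole syntenic interval on chromosome 7, and each line had its own wt littermates. From striatal lysates of other male mice there were 13 ribosome footprint libraries and 13 RNA libraries of the same lysates, with 3 del/+ and 3 wt animals in the 3g line and 3 del/+ and 4 wt animals in the 16p11.2 line. All mice were adult, untreated as far as the labels tell, and labelled as strain B6129S, whereas the methods name C57BL/6J as the males that gave the zygotes of the 3g line. The alleles are in every cell of the body, and whether each library came from 1 mouse is not written in the labels, so that p-values measure the spread between these samples. The tissue is bulk striatum, in which fewer cells of a type and less RNA per cell cannot be told apart.

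Totals ran from 11711099 to 65529807 counts in RNA-seq, from 15102576 to 19122488 in lysate RNA and from 342052 to 678130 in footprints. Taok2, the kinase gene that both lines target, stood at 83.2 to 94.9 CPM (counts scaled to library size) in 16p11.2 del/+ and at 153 to 196 in their wt. Its range in the 3g line of 156 to 197 CPM in del/+ overlapped that of 176 to 182 in wt, while Sez6l2 stood at 189 to 225 against 274 to 336 CPM without overlap. The 9 spiny neuron markers were expressed in every library, with a summed level between 3848 and 7029 CPM. Several libraries stood apart. The 6 cortical glutamatergic neuron markers, all of them detected, summed to 750.6 to 1315 CPM in the 16p11.2 line and to 35.7 to 907 CPM in the 3g line, with the highest value of the 3g line in wt male 17. Oligodendrocyte markers were lowest of the 16p11.2 line in del/+ male 4, at 4968 CPM against a highest value of 13175. The library of 16p11.2 del/+ female 1 went against its label, with 0.462 CPM of Xist and 38.5 CPM of the Y-linked Ddx3y, where the other 15 libraries labelled female had at least 326 CPM of Xist and none of Ddx3y.

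Most channel genes were expressed in the striatum. Over the 32 RNA-seq libraries 16 members had a median of at least 100 CPM, 34 lay between 10 and 100, 19 between 1 and 10 and 19 under 1, and none was without a read. The CPM are not divided by gene length, so levels are compared here between libraries and lines and not between genes. For each line of 16 libraries the lowest, the median and the highest level are given.

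Among the genes of the spiny neuron currents, Kcnj4, which encodes Kir2.3, stood at 158, 180 and 257 CPM in the 3g line and at 154, 231 and 296 in the 16p11.2 line. Kcnj2, which encodes Kir2.1, stood at 48.3, 57.5 and 81.1 CPM in the 3g line and at 43.9, 49.9 and 60.5 in the 16p11.2 line. Kcnd2, which encodes the A-type subunit Kv4.2, had 172, 187 and 205 CPM in the 3g line and 147, 191 and 239 in the 16p11.2 line. Its auxiliary subunit gene Kcnip2 had 344, 384 and 478 CPM and 294, 397 and 520 CPM in the same order. The ranges of these 4 genes in the 2 lines overlapped. In the edgeR test between wt mice given below, Kcnj4 was nevertheless called higher in the 16p11.2 line (log2 difference 0.31, adjusted p = 0.00348). Kcnj2 was called lower there (-0.28, 0.0110), and Kcnd2 (0.05) and Kcnip2 (0.09) were not called. Kcna4, which encodes the other rapidly inactivating subunit Kv1.4, had medians of 62.1 and 67.4 CPM. Kcna2, which encodes the axonal subunit Kv1.2, had a median of 248 CPM in the 3g line and 317.8 in the 16p11.2 line.

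Among the M-current genes Kcnq3 had 258, 288 and 337 CPM in the 3g line and 241, 321 and 398 in the 16p11.2 line, and Kcnq5 had 118, 131 and 140 against 109, 121 and 138. Kcnma1, the pore-forming subunit of the calcium- and voltage-gated BK channel, had medians of 182 and 231 CPM, and its neuronal auxiliary subunit Kcnmb4 had medians of 5.44 and 15.8 CPM. The calcium-gated SK2 gene Kcnn2 had medians of 20.9 and 21.4 CPM.

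Of the Kv3 genes that fast-spiking interneurons use, Kcnc1 had medians of 157 CPM in the 3g line and 164 in the 16p11.2 line and Kcnc2 of 40.0 and 47.0. The silent subunit gene Kcns3, known from the same cells, had medians of 1.92 and 4.05 CPM. Kcnj10, which encodes the astrocytic Kir4.1, stood at 209, 250.1 and 284 CPM in the 3g line and at 221, 368 and 576 in the 16p11.2 line, and its partner Kcnj16 had medians of 13.7 and 17.3 CPM. The vascular Kir6.1 gene Kcnj8 had medians of 3.14 and 3.39 CPM. Kcnj13, known from the choroid plexus, had at most 0.264 CPM in any library. The leak channel genes Kcnk1 and Kcnk2 had medians of 67.2 and 108 CPM in the 3g line and 92.0 and 135 in the 16p11.2 line, the EAG gene Kcnh1 had 113 and 143, and the sodium-gated Slack gene Kcnt1 had 423 and 226 CPM.

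The genotype effect on these genes was small in both lines. With both sexes together, no member changed at an adjusted p under 0.05 in the quasi-likelihood test of edgeR, adjusted over all genes by the Benjamini-Hochberg method, among 78 members tested in the 3g line and 74 in the 16p11.2 line, where 0.00517% and 0.18% of all genes were called. At an unadjusted p under 0.05 there were 7 members in the 3g line, all 7 higher in del/+, and 2 in the 16p11.2 line, both lower, beside 5.7% and 6.39% of all genes. DESeq2 called none in either line. Without 16p11.2 del/+ male 4 and del/+ female 1 together, again none was called. In 69 of the 78 members of the 3g line and in 63 of the 74 of the 16p11.2 line the 95% confidence interval of the difference lay within 1.5-fold in either direction. Members' medians were 0.03 and 0.01 on the log2 scale, and those of all genes 0.00 in both.

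**Figure D1:**
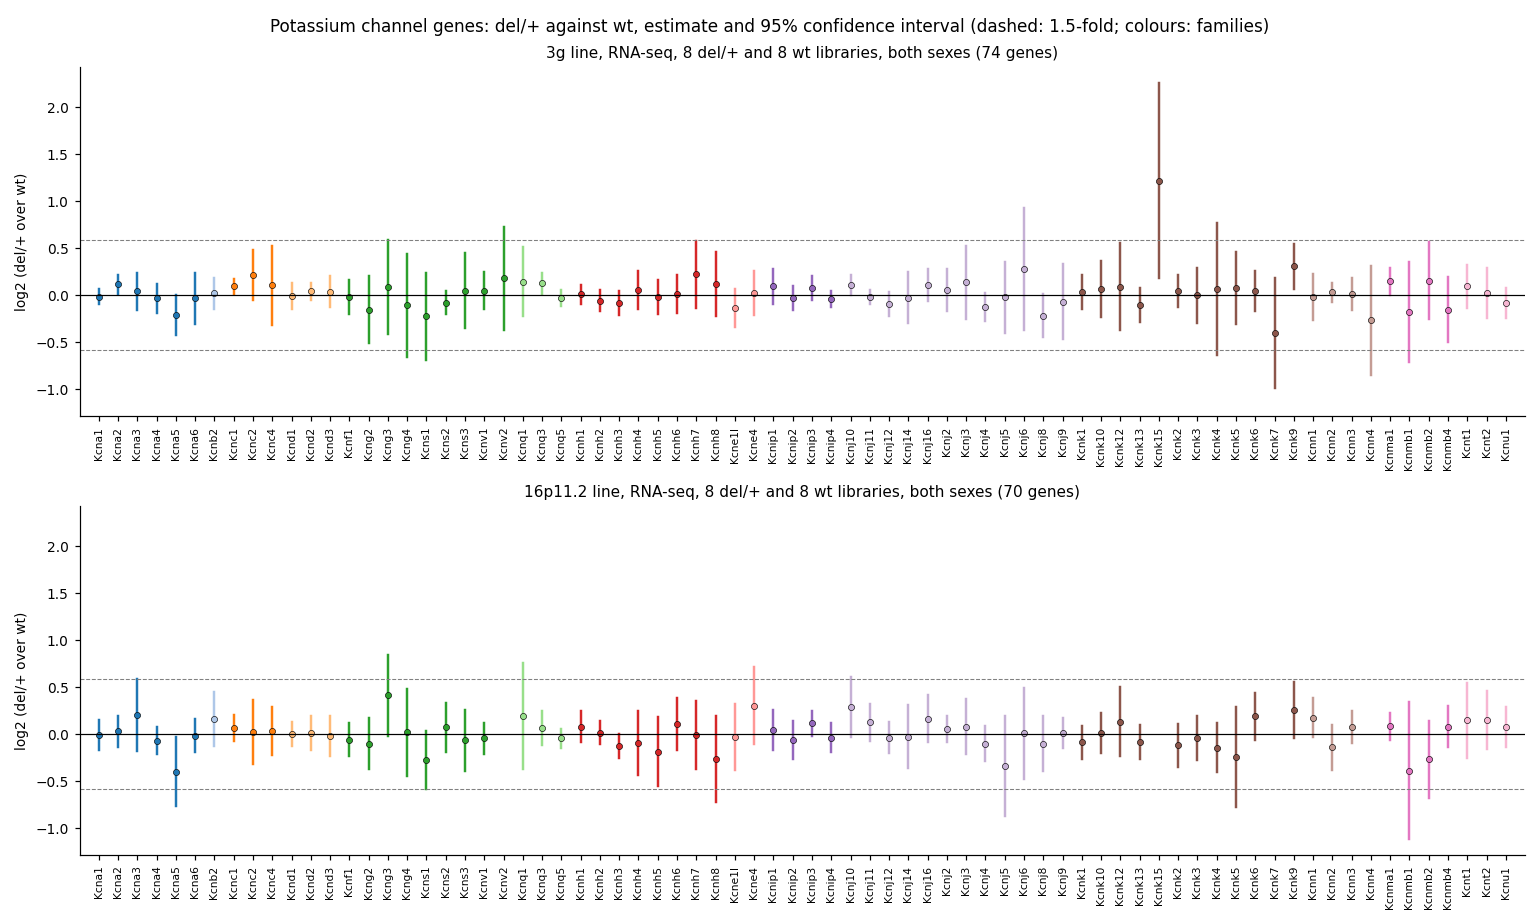
Log2 difference between del/+ and wt (y axis) for 74 potassium channel genes in the 3g line and 70 in 16p11.2 mice (x axis, grouped and coloured by family) in the upper and the lower panel, from 8 and 8 RNA-seq libraries each. Points are estimates, bars are 95% confidence intervals and dashed lines mark 1.5-fold, within which 65 and 59 of the intervals drawn lie.

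Channels of the spiny neuron showed intervals around no difference. The log2 difference in the 3g line was 0.04 (95% confidence interval -0.06 to 0.13) for Kcnd2 and -0.03 (-0.16 to 0.10) for Kcnip2. Kcnj4 had -0.13 (-0.27 to 0.02) and Kcnj2 0.06 (-0.17 to 0.28). The corresponding values in the 16p11.2 line were 0.01 (-0.17 to 0.19) for Kcnd2, -0.06 (-0.26 to 0.14) for Kcnip2, -0.10 (-0.29 to 0.09) for Kcnj4 and 0.06 (-0.08 to 0.19) for Kcnj2. By family, all 4 Kv3 genes had estimates above 0 in the 3g line, between 0.07 and 0.21, and the 12 inward rectifiers tested were split into 5 above and 7 below. The Kv3 genes of the 16p11.2 line were split into 3 above and 1 below, with a median of 0.03.

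The 2 members with the smallest p in each line are named with their values. Kcnk9, which encodes the leak channel TASK-3, had a log2 difference of 0.31 ± 0.12 in the 3g line (SE, adjusted p = 0.851). Kcnk15, a 2-pore-domain gene close to TASK-1 and TASK-3, had 1.22 ± 0.49 (adjusted p = 0.861), at levels of at most 0.678 CPM in any 3g library. Kcna5, the Kv1.5 gene, had -0.40 ± 0.18 in the 16p11.2 line and Kcnh3, the forebrain ELK2 gene, -0.13 ± 0.06, both with an adjusted p of 0.776. None of the 17 auxiliary and related genes tested beside them was called in either line, a list that holds the Kv beta subunits, the Kv4 partners Dpp6 and Dpp10, the sulfonylurea receptors and the HCN channels. Chromosome 7, which carries the 16p11.2 interval, holds 9 of the members, and the 6 of them that were tested had log2 differences between -0.03 and 0.19 in the 16p11.2 line.

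In males alone, no member was called in either line. In 3g males 1 of 78 members had an unadjusted p under 0.05, beside 1.44% of all genes, of which 0% were called. This was Kcnk15, with 0.557, 0.132, 0.265 and 0.341 CPM in del/+ and 0.0800, 0.0659, 0.0487 and 0.268 in wt. Its highest wt library lay inside the del/+ range, and the log2 difference was 1.32 ± 0.59 (SE, adjusted p = 0.974). Kcnj10 followed with 224, 284, 252 and 263 CPM in del/+ and 237, 228, 209 and 231 in wt, a difference of 0.19 ± 0.08 (adjusted p = 0.974).

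In 16p11.2 males 2 of 74 members had an unadjusted p under 0.05, both lower in del/+, beside 5.82% of all genes, of which 0.106% were called. Kcns1, a silent Kv subunit gene, had 8.78, 11.5, 12.7 and 7.604 CPM in del/+ and 12.7, 12.9, 13.3 and 20.04 in wt. The 2 groups met at 12.7 and 1 wt library stood well above the others, and the log2 difference was -0.53 ± 0.20 (adjusted p = 0.742), or -0.35 without that library. Kcnk2, which encodes the mechanosensitive leak channel TREK-1, had 128, 124, 120 and 99.0 CPM in del/+ and 149.5, 135, 141 and 135 in wt. All 4 del/+ libraries were below all 4 wt libraries, with a difference of -0.24 ± 0.10 (adjusted p = 0.742), or -0.17 without del/+ male 4. Kcnt1 varied widely within both groups, with 225, 184, 246 and 372 CPM in del/+ and 139, 227, 251 and 119 in wt.

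In 16p11.2 females 3 of 74 members had an unadjusted p under 0.05, all higher in del/+, beside 4.47% of all genes, of which 0.144% were called. Kcnj16, which encodes the astrocytic Kir5.1, had 21.6, 17.3, 24.96 and 19.5 CPM in del/+ and 18.1, 15.0, 17.5 and 13.3 in wt. The groups overlapped, with a log2 difference of 0.38 ± 0.13 (SE, adjusted p = 0.998). Kcnn1, which encodes SK1, had 24.7, 26.6, 31.7 and 32.3 CPM in del/+ and 24.6, 22.7, 24.9 and 23.6 in wt, a difference of 0.27 ± 0.10 (adjusted p = 0.998). The first del/+ value of each gene is that of the library whose sex-linked genes went against its label, and without it the differences were 0.36 and 0.33 (adjusted p = 0.782 and 0.62).

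Among the RNA-seq comparisons between genotypes, the females of the 3g line had the most channel genes at a small p. None of 76 members was called, where 0.00526% of all genes were, but 14 members had an unadjusted p under 0.05, 12 of them higher in del/+, which is 18.4% of the members beside 11% of all genes. This count depended on the fit. With all 16 libraries of the line fitted together it was 7 of 78 members, 4 of them higher, beside 3.62% of all genes. The estimates lay above 0 in 55 of 76 members (72.4%), against 49.5% of all genes, and the members' median was 0.07. Males of the line leaned the other way, with 31 of 78 members (39.7%) above 0, against 50% of all genes, and a median of -0.04. Kcnq3, the M-current subunit gene, had 318.8, 337, 323 and 321 CPM in del/+ (libraries 28, 31, 36 and 37) and 289, 292, 282 and 280.1 in wt (29, 30, 35 and 39). All 4 del/+ libraries stood above all wt libraries, with a log2 difference of 0.18 ± 0.03 (SE, adjusted p = 0.204). Kcna2 had 285, 285, 259 and 251 CPM in del/+ and 238, 231, 224 and 249 in wt, again without overlap, with a difference of 0.19 ± 0.05 (adjusted p = 0.254). DESeq2 called both, Kcnq3 with an adjusted p of 0.00017 and Kcna2 with one of 0.0414, and called 0.62% of all genes.

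Levels of Kcnh7 and Kcnk9 in these females went with the cortical markers in the library of each genotype that stood apart, though not in every library. Summed cortical markers were 478, 629.9, 449 and 161 CPM in the del/+ libraries 28, 31, 36 and 37 and 159, 114, 154 and 563 CPM in the wt libraries 29, 30, 35 and 39. Kcnh7, which encodes the ERG3 channel, had 52.6, 60.1, 52.7 and 33.7 CPM in del/+ and 30.8, 29.4, 31.2 and 53.8 in wt. Kcnk9 had 78.8, 97.2, 81.4 and 64.4 CPM in del/+ and 52.2, 48.5, 50.5 and 83.0 in wt. For both genes the del/+ library with the low marker level was the lowest of its group, and the wt library with the high marker level was the highest of its group. Kcnq3 did not share this pattern, since wt female 39 was its lowest wt library.

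**Figure D2:**
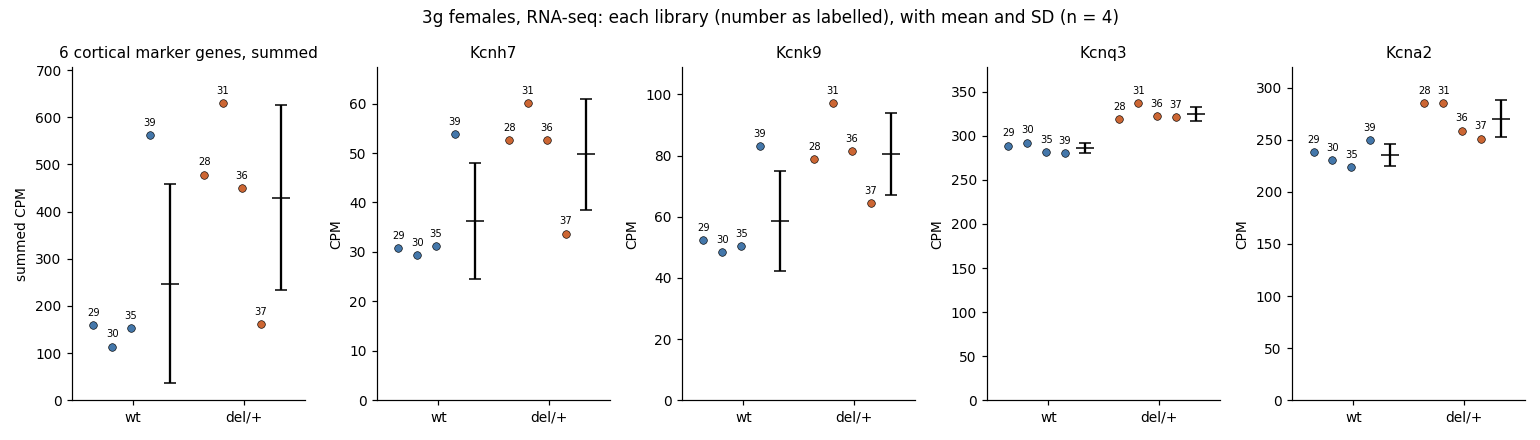
Each 3g female RNA-seq library, wt in blue and del/+ in orange with its number as labelled, for the summed level of 6 cortical marker genes and for 4 channel genes (y axes in CPM, from 0), with black bars for the mean and SD of 4 libraries. Wt female 39 has 563 CPM of the markers and the highest wt level of Kcnh7 (53.8) and Kcnk9 (83.0), whereas Kcnq3 separates the genotypes in all 8 libraries.

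Without wt female 39, 5 of 76 members were called, all higher in del/+, and 0.915% of all genes, and 27 members (23 higher) had an unadjusted p under 0.05, beside 16.6% of all genes. These were Kcnh7 (log2 difference 0.70, adjusted p = 0.0472), Kcnk9 (0.67, 0.0375), Kcnc2 (0.35, 0.0441), Kcnq3 (0.17, 0.0442) and Kcnk4, the TRAAK leak channel gene (0.93, 0.0391). The wt libraries that remained had 114 to 159 CPM of cortical markers and the del/+ libraries 161 to 629.9, so that without this library the marker levels and the genotypes did not overlap either. Without del/+ female 37 none was called, but 30 of 78 members (24 higher) had an unadjusted p under 0.05, beside 14.8% of all genes, and Kcnh7 stood at 0.59 (adjusted p = 0.17). What part the marker level has in these differences was not tested.

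The genotype effect did not differ detectably between the sexes. No member passed the interaction test in either line, where 0% of all genes were called. The estimate, male over female effect, lay above 0 in 22 of 78 members (28.2%) of the 3g line, against 48.5% of all genes. In the 16p11.2 line it did so in 27 of 74 (36.5%), against 49.5%. At an unadjusted p under 0.05 there were 2 of 78 members in the 3g line, beside 2.69% of all genes, and 2 of 74 in the 16p11.2 line, beside 4.33%. Those of the 3g line were Kcnmb1, the BK auxiliary subunit gene of smooth muscle, with an effect in males over that in females of 1.05 ± 0.45 on the log2 scale, and the silent subunit gene Kcnv1 with -0.38 ± 0.17 (SE, adjusted p = 0.901 for both). Those of the 16p11.2 line were the TREK-2 gene Kcnk10 with -0.42 ± 0.18 and Kcnj8 with -0.54 ± 0.25 (adjusted p = 0.835 for both). The library that went against its label counts as female in this test. With any 1 library left out the values lay between -0.50 and -0.33 for Kcnk10 and between -0.70 and -0.40 for Kcnj8. No member was called in those fits or without that library and del/+ male 4 together.

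Levels in males and females were also close. No member was called between the sexes in the 3g line, with 5 of 78 at an unadjusted p under 0.05 beside 5.86% of all genes, of which 0.134% were called. None was called in the 16p11.2 line, with 8 of 74 at an unadjusted p under 0.05 beside 7.62%, of which 0.00546% were called. Kcnip3, which encodes the calcium sensor DREAM, was at -0.21 ± 0.06 (SE, male over female, log2, adjusted p = 0.421) in the 3g line, and without wt male 17 it was at -0.25 and was called (adjusted p = 0.0418). Kcnj8 was at 0.28 ± 0.11 there. Kcnh3 of the 16p11.2 line was at -0.22 ± 0.06 (adjusted p = 0.518) and Kcnj10 at -0.46 ± 0.15 (adjusted p = 0.620), where the library that went against its label counts as female. Without it and del/+ male 4 the values were -0.19 and -0.48, and none was called.

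The lysate RNA of other males gave the same count of 0 members called. In the 3g line 3 of 71 members had an unadjusted p under 0.05, beside 4.92% of all genes, of which 0.0209% were called. They included Kcnj6, which encodes the G protein-gated Kir3.2, at 0.44 ± 0.15 and Kcnmb4 at 0.40 ± 0.14 (SE, adjusted p = 0.940 for both). The 16p11.2 line had 3 of 71 members at such a p, all lower, beside 4.41%, of which 0.133% were called. These included Kcnh3 at -0.29 ± 0.11 and the Kv2.2 gene Kcnb2 at -0.32 ± 0.13 (adjusted p = 0.990 for both).

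Ribosome footprints, the fragments of RNA that ribosomes protect, were counted at far lower depth, and 45 members in the 3g line and 42 in the 16p11.2 line passed the filter. None was called. In the 3g line 5 members had an unadjusted p under 0.05, 4 of them higher in del/+, beside 7.97% of all genes, of which 0.0132% were called. Kcnc2 had 41.2, 47.9 and 41.7 CPM of footprints in del/+ and 16.7, 13.01 and 24.6 in wt, from 26, 44 and 33 counts against 9, 7 and 13. The groups did not overlap, with a log2 difference of 1.19 ± 0.35 (SE, adjusted p = 0.414). Kcna2 likewise had 125, 164 and 126 CPM in del/+ and 81.8, 68.8 and 92.9 in wt, a difference of 0.70 ± 0.23 (adjusted p = 0.414), and Kcnh7 differed by 1.17 ± 0.41 (adjusted p = 0.446). All 3 del/+ footprint libraries of this line were deeper than the wt ones, with 527917 to 678130 against 342052 to 422918 counts. What part depth has in these values was not tested.

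In the footprints of the 16p11.2 line 3 members had an unadjusted p under 0.05, beside 6.15% of all genes, of which 0.117% were called. Kcns2, a silent Kv subunit gene at chr15:34837355-34843407 (GRCm38.p6), had 458, 436 and 444 CPM in del/+ and 401, 223, 268 and 294 in wt. All del/+ animals stood above all wt animals, with a log2 difference of 0.63 ± 0.21 (SE, adjusted p = 0.430). Kcnh2, which encodes the ERG1 channel, was decided by 1 library. A single wt animal had 293 CPM from 141 counts where the other wt animals had 32.2 to 42.4 CPM and the del/+ animals 26.8 to 59.4, and the difference of -1.37 ± 0.53 (adjusted p = 0.667) became 0.063 without it.

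Footprints per RNA, the ratio of both kinds of library from the same lysates, was compared between genotypes by an interaction test. In the 3g line no member and 0% of all genes were called, and 6 of 73 members had an unadjusted p under 0.05, beside 7.67% of all genes. The smallest p was that of Kcnc2, at 1.04 ± 0.40 (SE, adjusted p = 0.563). In the 16p11.2 line no member was called, where 0.00664% of all genes were, and 4 of 76 members had an unadjusted p under 0.05, beside 6.24%. The silent subunit gene Kcng4 was among them on no more than 3 footprint counts in any animal and 0 in all del/+ animals.

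Kcns2 showed the clearest ratio difference. In the 16p11.2 line its footprint CPM over lysate RNA CPM was 17.1, 15.1 and 14.9 in del/+ and 13.5, 6.99, 8.76 and 7.35 in wt. All 3 del/+ ratios were above all 4 wt ratios, with 1 wt animal close to them, and the log2 difference was 0.78 ± 0.23 (SE, adjusted p = 0.724). With the shared library number as a block, taken as the animal, the difference was 0.79 ± 0.19. It was called in that fit (adjusted p = 0.0464), as 0.0664% of all genes were. The 3g line ran the other way, with 7.57, 4.99 and 4.19 in del/+ and 6.14, 7.76 and 7.52 in wt, overlapping.

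Larger contrasts were found between footprints and RNA themselves. In wt animals the footprints of each gene were tested against its lysate RNA, relative to all genes, and a ratio of 1 is the common centre of all libraries. In the 3g line 34 of 69 members were called, 14 higher and 20 lower, where 44.3% of all genes were called, 20.6% higher and 23.7% lower. In the 16p11.2 line 31 of 68 were called, 13 higher and 18 lower, beside 46.6% of all genes, 21.4% higher and 25.2% lower. The share of members called was thus near that of all genes, and what follows describes which of them lay on which side. Of 67 members tested in both lines, which share no animal, 10 were higher in both, 16 lower in both, 8 called in the 3g line alone, 4 in the 16p11.2 line alone and 29 in neither. Over all genes tested in both, 35% were called in both in the same direction.

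**Figure D3:**
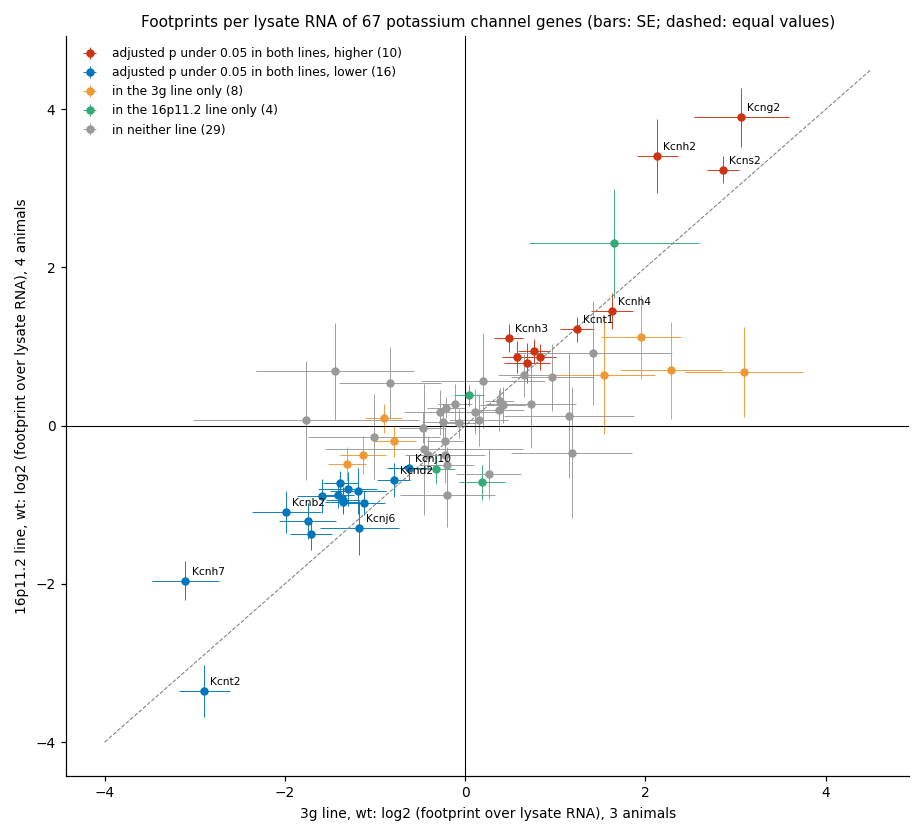
Log2 of footprints over lysate RNA in wt animals of the 3g line (x axis, 3 animals) and of the 16p11.2 line (y axis, 4 animals) for 67 potassium channel genes, with SE bars and a dashed line of equal values. The 10 genes called higher in both lines (red) include Kcns2, Kcng2 and Kcnh2 at the upper right, and the 16 called lower in both (blue) reach down to Kcnt2 and Kcnh7.

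On the upper side, the silent subunit gene Kcns2 had a log2 ratio of 2.86 ± 0.18 (SE) in the 3g line and 3.24 ± 0.17 in the 16p11.2 line, and its ratio was above 1 in all 13 animals, between 4.19 and 17.1 with a median of 7.57. Kcng2, of the same class, had 3.06 ± 0.52 and 3.90 ± 0.37, with ratios from 3.85 to 31.9 on 3 to 16 footprint counts an animal. Kcnh2 had 2.13 ± 0.23 and 3.41 ± 0.47, of which the second fell to 1.96 without the wt animal named above for its Kcnh2 footprints. Kcnh4, an ELK gene of the striatum, had 1.63 ± 0.23 and 1.45 ± 0.23, and Kcnt1 had 1.24 ± 0.19 and 1.22 ± 0.16, with ratios of 1.82 to 2.95 over all 13 animals. Kcnk1 (0.83 and 0.87), the Kv1.3 gene Kcna3 (0.68 and 0.79), Kcnj4 (0.57 and 0.87) and Kcnh3 (0.48 and 1.11) were also on this side. Some of these calls were lost when 1 library was left out, of 6 in the 3g line and 8 in the 16p11.2 line. Kcna3 was no longer called in 3 such fits in 3g mice and 2 in 16p11.2 mice (adjusted p up to 0.153 and 0.0988), and in the 3g line Kcnh3 was lost in 3 (up to 0.125) and Kcnj4 in 2 (up to 0.121).

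The lower side held the Slick gene Kcnt2, at -2.89 ± 0.28 and -3.35 ± 0.32, with ratios between 0.0346 and 0.247 in the 13 animals. Kcnh7 had -3.10 ± 0.37 and -1.96 ± 0.25 and Kcnb2 -1.99 ± 0.38 and -1.09 ± 0.26. Of the spiny neuron and M-current genes, Kcnj2 had -1.71 ± 0.23 and -1.37 ± 0.20, Kcnq3 -1.36 ± 0.19 and -0.96 ± 0.15 and Kcnq5 -1.35 ± 0.19 and -0.95 ± 0.17. Kcna2 had -1.38 ± 0.19 and -0.72 ± 0.15, and Kcnd2 -0.79 ± 0.18 and -0.69 ± 0.21. The other 8 were the silent subunit gene Kcnv1, Kcnip4, Kcnk2, Kcnc2, Kcnj3, Kcnj6, Kcnma1 and Kcnj10. The ratio of Kcnq3 was the most even of these, from 0.334 to 0.558 over all animals. With 1 library left out, Kcnj10 was no longer called in 5 of the 6 fits in 3g mice (log2 -1.07 to -0.37, adjusted p up to 0.287) and in 2 of the 8 in 16p11.2 mice, Kcnj3 in 5 of those 8 (-1.03 to -0.45, up to 0.148), Kcnj6 in 2 in 3g mice (up to 0.178) and Kcnd2 in 2 in 16p11.2 mice (up to 0.166).

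**Figure D4:**
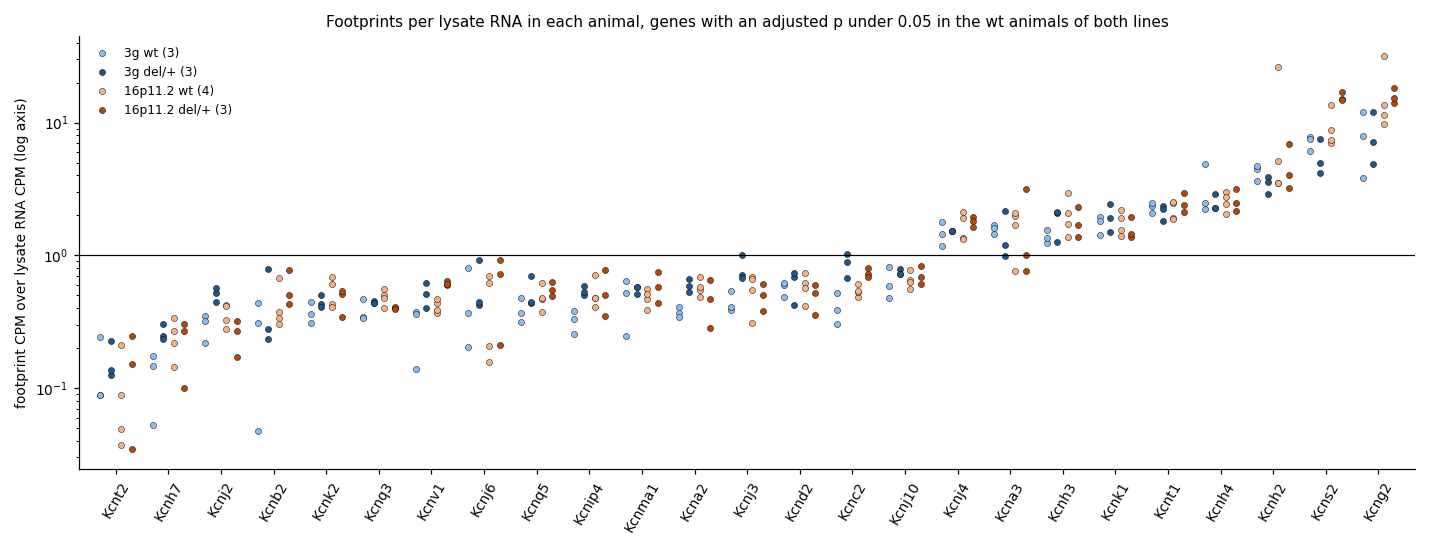
Footprint CPM over lysate RNA CPM (log y axis) in each of the 13 animals, coloured by line and genotype, for 25 of the 26 genes called in the same direction in wt animals of both lines (x axis, ordered by median). Kcns2 lies between 4.19 and 17.1 and Kcnt2 between 0.0346 and 0.247, and the line at 1 is the common centre of the libraries.

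Over lysate RNA the genes of 1 family went both ways. Of the Kir2 genes Kcnj4 was on the upper side and Kcnj2 on the lower, and of the sodium-gated genes Kcnt1 was above and Kcnt2 below. These 2 splits depended on the reference. Over RNA-seq, as described below, Kcnj4 (-0.83 in the 3g line and -0.96 in the 16p11.2 line) and Kcnj2 (-0.96 and -0.15) were both below. Kcnt1 (0.04 and 0.76) and Kcnt2 (1.07 and 0.36) were both above. Of the 8 EAG, ERG and ELK genes tested in both lines 3 were higher in both and 1 was lower in both, of the 8 silent subunit genes 2 were higher and 1 was lower, and of the 10 inward rectifiers 1 was higher and 4 were lower. The ERG2 gene Kcnh6 was called higher in the 3g line alone, and 38 of its wt footprint counts came from 1 wt animal, where the other 2 wt animals had 3 and 4, and without that footprint library it was not called (0.94, adjusted p = 0.257). Of the 16 auxiliary and related genes tested in the 3g line 10 were called, 6 higher and 4 lower, and of 17 in the 16p11.2 line 9 were called, 5 higher and 4 lower. They included Hcn2 at 0.69 ± 0.18 and 1.31 ± 0.15 and the sulfonylurea receptor gene Abcc8 at 1.58 ± 0.27 and 1.83 ± 0.36, and, on the lower side, the Kv beta gene Kcnab1 at -1.01 ± 0.20 and -0.80 ± 0.23.

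Part of this ordering depended on which RNA the footprints were divided by. When the RNA-seq libraries of the 4 wt males of the same line, which are other animals, took the place of the lysate RNA, 33 of 77 members were called in the 3g line and 34 of 73 in the 16p11.2 line, beside 34.3% and 46.3% of all genes. Kcnt2 went to 1.07 ± 0.39 in the 3g line and to 0.36 ± 0.46 in the 16p11.2 line. Its median in wt males was 9.22 CPM in RNA-seq and 108 CPM in lysate RNA of the 3g line, and 13.2 and 126 CPM in the 16p11.2 line. Kcnj6 likewise changed side in both lines, with 3.23 CPM in RNA-seq and 18.7 CPM in lysate RNA of the 3g line. Kcnb2 did so in the 16p11.2 line and Kcnj3 in the 3g line. Of these changed values only that of Kcnb2 was called, at 1.01 ± 0.37 (adjusted p = 0.0335). Kcnt2 had an adjusted p of 0.0522 in the 3g line and 0.558 in the 16p11.2 line. Kcnj6 had 1.66 ± 0.76 and 0.63 ± 0.51 (0.117 and 0.334), and Kcnj3 had 0.20 ± 0.41 (0.744). Kcnj4 and Kcnh3 changed from the upper to the lower side, at -0.83 ± 0.20 and -0.90 ± 0.18 in the 3g line and -0.96 ± 0.20 and -0.77 ± 0.18 in the 16p11.2 line. Both were called lower in both lines (adjusted p = 0.0087 and 0.00227 in the 3g line, 0.000778 and 0.00189 in the 16p11.2 line). The median of Kcnj4 was 182 CPM in RNA-seq and 53.6 CPM in lysate RNA of the 3g line, and that of Kcnh3 was 210.1 and 54.5 CPM. Other genes kept their sign but lost a call. Kcnt1 was at 0.04 ± 0.26 and Kcnh4 at 0.45 ± 0.26 in the 3g line (adjusted p = 0.921 and 0.204). In the 16p11.2 line both stayed called (0.76 and 0.96). Kcnk1 was called in neither line (0.45 and 0.28). Of the 10 genes higher in both lines, 5 kept their call in the 3g line and 7 in the 16p11.2 line. Of the 16 lower, 7 and 6 did.

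With either RNA and in both lines, 5 genes were called higher and 4 lower. The share of all genes called in this way was not counted, so these counts describe the members only. The higher ones included Kcns2, at 2.44 ± 0.17 and 2.53 ± 0.17 over RNA-seq, Kcng2 (3.71 and 4.01), Kcnh2 (0.87 and 2.05) and Kcna3 (2.90 and 3.08), whose calls over lysate RNA were lost without some libraries as given above. The lower ones were Kcnd2, at -1.31 ± 0.19 and -1.28 ± 0.17 over RNA-seq, Kcnq5 (-1.17 and -0.74), Kcna2 (-1.04 and -0.51) and Kcnq3 (-0.83 and -0.36), and of these Kcnd2 lost its call over lysate RNA without some libraries of the 16p11.2 line. Both RNA assays count reads by gene, but under different genome builds and with library kits that differ, and the regions of each gene that were counted are not given in the sources used here. The ratio also compares footprints, which lie in coding sequence, with RNA from whole transcripts.

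Many channel genes stood at different RNA-seq levels in the 2 lines, as did many other genes. Between wt mice 49 of 75 members (65.3%) were called, a share near the 62.5% of all genes. The direction was less even, with 38 members (50.7%) higher in the 16p11.2 line where 30.9% of all genes were. Lower there were 11 members (14.7%), beside 31.6% of all genes. Kcnmb4 stood at 4.66 to 11.7 CPM in the 8 wt libraries of the 3g line and at 11.8 to 16.3 in those of the 16p11.2 line, without overlap and with a log2 difference of 1.22 ± 0.16 (SE, adjusted p = 5.03e-05). The others with the smallest adjusted p on the higher side were Kcng4 (1.596 ± 0.28), Kcnk3, the TASK-1 gene (0.97 ± 0.15), the Kir3.3 gene Kcnj9 (0.96 ± 0.17), Kcnn1 (0.66 ± 0.12) and Kcnv1 (0.52 ± 0.09). On the lower side were Kcng3 (-1.20 ± 0.23), Kcnt1 (-0.98 ± 0.16), Kcnh4 (-0.85 ± 0.16), Kcna5 (-0.69 ± 0.15), the SK3 gene Kcnn3 (-0.48 ± 0.09) and the Kv4.3 gene Kcnd3 (-0.40 ± 0.08). Of the auxiliary and related genes 12 of 17 were called, 6 in each direction.

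Most of these differences were smaller in the lysate RNA. No member was called there, 3 of 70 had an unadjusted p under 0.05, and 10.8% of all genes did, of which 0.0139% were called. Of the 48 members called in RNA-seq and tested in both assays, 29 had the same sign in lysate RNA. The median size of their difference was 0.472 in RNA-seq and 0.128 in lysate RNA. These members were selected by their RNA-seq call, which by itself favours larger sizes in that assay. The RNA-seq fit also used 16 libraries of both sexes and the lysate RNA fit 7 libraries of males. The same counts over all genes were not made. Kcnmb4 had 0.25 ± 0.14 in lysate RNA, Kcnk3 -0.09 ± 0.12, Kcnj9 0.05 ± 0.18, Kcnn1 -0.10 ± 0.18 and Kcnt1 -0.34 ± 0.11. Others had a similar size in both assays, with wide errors in lysate RNA, such as the Kir2.4 gene Kcnj14 at 0.62 ± 0.16 in RNA-seq and 0.63 ± 0.36 in lysate RNA and Kcnh6 at -0.38 ± 0.12 and -0.37 ± 0.25. In footprints no member was called either, with 5 of 41 at an unadjusted p under 0.05 beside 10.5%, of which 0.241% were called. The lowest p were those of Kcna2 at 0.77 ± 0.23 (adjusted p = 0.193) and Kcnh7 at 1.30 ± 0.42 (adjusted p = 0.250), in a comparison that uses the same 3g wt libraries as the genotype effect above.

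**Figure D5:**
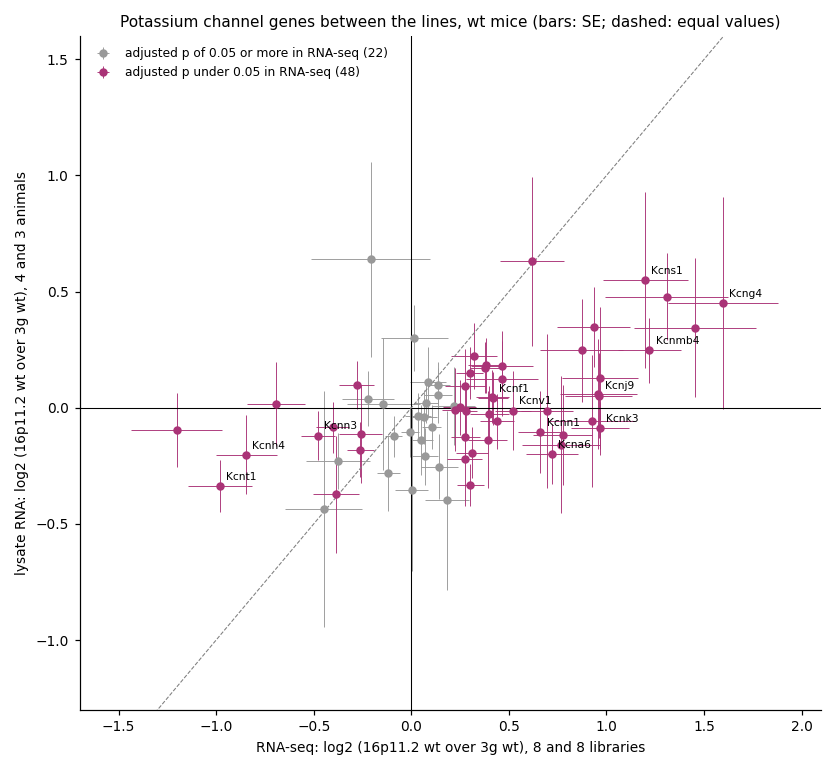
Log2 difference between wt mice of the 16p11.2 and the 3g line in RNA-seq (x axis, 8 and 8 libraries) and in lysate RNA (y axis, 4 and 3 animals) for potassium channel genes tested in both, with SE bars and a dashed line of equal values. The 48 genes called in RNA-seq (purple) have a median size of 0.472 on the x axis and of 0.128 on the y axis, where Kcns1 (0.55) and Kcnj14 (0.63) lie highest of them.

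Several values moved with the line in RNA-seq. Cortical markers were higher in all 16p11.2 libraries than in all 3g libraries but wt male 17, and oligodendrocyte markers summed to 4968 to 13175 CPM in the 16p11.2 line and to 3655 to 10013 in the 3g line. In wt females interneuron markers (5 genes) summed to 297 to 331 CPM in the 16p11.2 line and 211 to 221 in the 3g line, endothelial markers (3 genes) to 62.4 to 80.3 and 122 to 131, and pericyte markers (3 genes) to 132 to 167 and 187 to 202, none of them overlapping. In wt males the ranges of these 3 lists overlapped. Wt male 17 also lay nearer to the 16p11.2 libraries in Kcnmb4, Kcnj9 and Kcnt1, genes named above for their line difference. It had 11.7, 109 and 219 CPM of them, where the other 3g wt libraries had 4.66 to 6.83, 39.7 to 65.9 and 383 to 457. Without it 55 members were called, against 49 with all libraries. Over all genes 11966 were called with all libraries, and 11193 to 13143 in the fits that left out a library. Whether the rise without wt male 17 is particular to channel genes was not tested. The line and whatever else differed between the sets of libraries cannot be told apart in this comparison, and the part of the marker levels was not tested.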

How the data were processed

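Striatal RNA-seq (32 libraries), ribosome footprints (13) and lysate RNA (13) were analysed. The deposited values were raw counts per Ensembl gene. For RNA-seq the authors used the bcbio-nextgen pipeline, and the processing notes name HTSeq and mm10. For footprint and lysate RNA counts they name Bowtie2 and mm39. Versions, annotation and counted regions are not given in the sources used here. The extraction text of the labels names human brains where the other labels give mouse striatum, which was taken as the tissue, and 1 RNA-seq column name doubles its genotype tag.

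Genes were filtered with filterByExpr (minimum count 10), scaled by TMM and tested in R 4.3.3 with the quasi-likelihood test of edgeR 4.0.16, adjusted by Benjamini-Hochberg over all genes, at 0.05. DESeq2 1.42.0, other scaling, no filter, leaving out each library and a replicate block were alternatives. RNA-seq CPM were scaled over 32 libraries, footprint and lysate RNA CPM together over their 26. Deposited IDs were named through a gene table, which matched 54409 of 54532 and 18377 of 18411, and coordinates are RefSeq GRCm38.p6. Of 78 pairs of libraries within groups none was identical. Counting precision follows depth, given with the results.

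Members and lists were chosen with earlier results of these data known. Named were members called between genotypes, sexes or in the interaction, otherwise the 2 with the smallest p, the 6 called members with the smallest adjusted p a side in line and footprint-per-RNA comparisons (here from the 26 called in both lines), and channels known in striatal cells. Other members, among them Kcnh7, Kcnk4 and those in the lysate RNA, footprint, interaction and sex comparisons, were chosen for description after their values were seen. A ranking per kilobase was not made, for want of lengths. The replacement of lysate RNA by RNA-seq was added after seeing the data. Footprint and lysate RNA libraries whose titles share 1 number were taken to come from 1 animal. Deviations of these pairs from the group means correlated only at 0.0463 to 0.0981 in the 3g line and 0.051 to 0.128 in the 16p11.2 line. The fits were tested on simulated counts with known changes. Values of some genes named by this rule are not reported here or drawn by gene, and counts include them.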

Additional observations from a re-analysis of the deposited data

Results flagged for a closer look

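Among the values printed library by library, 30 groups of 4 libraries were searched for a library far from the others, and 6 were found. The search flags about 1 group in 20 by chance. That rate does not apply as such here, since some genes were printed for their small p or after their values were seen. In the RNA-seq of 3g females, wt female 39 stood apart in the summed level of 6 cortical markers, at 562.6 CPM where the other 3 wt females had 114 to 159. The same library stood apart in Kcnh7, at 53.81 CPM against 29.4 to 31.2, and in Kcnk9, at 82.98 CPM against 48.5 to 52.2. In 16p11.2 males, wt male 4 had 20.04 CPM of Kcns1 where the others had 12.7 to 13.3. In 3g males, wt male 34 had 0.2683 CPM of Kcnk15, a gene near its detection limit, where the others had 0.0487 to 0.0800. In the footprints, 1 wt animal of the 16p11.2 line had 293.3 CPM of Kcnh2 where the others had 32.2 to 42.4. No member passed the genotype by sex interaction.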

How the results depend on the processing

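In 18 of 21 comparisons no potassium channel gene was called. The exceptions among their alternatives were few. DESeq2 called 0 members in 17 of the 18 and 2 for 3g females, where a fit without a filter on low counts called 1 (Kcnq3, 0.17, adjusted p = 0.034), and with 1 library left out the count was 0 to 5. For the sex effect of the 3g line it was 0 to 1 with 1 library left out. Without a filter, 1 member was called in the footprints of the 16p11.2 line (Kcnh2, -1.38, adjusted p = 0.00284, which rests on 1 wt animal) and 1 in the footprint line difference (Kcnh6, -2.75, adjusted p = 0.000749). The replicate block called 1 member in the ratio by genotype of the 16p11.2 line, Kcns2, and elsewhere left each count of calls within 1.5 times. In the 16p11.2 RNA-seq the replicate numbers are shared by name only, since deviations of same-numbered libraries correlated at -0.255 to 0.107, and the block left 0 members called.

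In the 3 comparisons with calls the number of members called was 26 to 31 with 1 library left out and 30 to 37 otherwise (wt footprints per lysate RNA, 3g line, 34 in the report), 27 to 31 and 29 to 36 (16p11.2 line, 31) and 45 to 55 and 48 to 57 (line difference, 49). These were not always the same genes. Of the 34 and 31 calls, 26 to 30 and 24 to 29 remained with 1 library left out, 26 and 22 with del/+ animals in place of wt, and 18 and 16 with RNA-seq as the reference, where 5 and 7 had the opposite sign. Of the 49, 45 to 49 remained with 1 library left out. Of 1575 values of named members under alternatives 1564 kept their direction and 11 did not. With 1 library left out, Kcnh2 in the 16p11.2 footprints ranged from -1.83 to 0.063. With RNA-seq as the reference the log2 ratio turned in the 3g line to 1.07 for Kcnt2, 0.20 for Kcnj3, 1.66 for Kcnj6, -0.90 for Kcnh3 and -0.83 for Kcnj4, and in the 16p11.2 line to -0.77 for Kcnh3, 0.36 for Kcnt2, 1.01 for Kcnb2, 0.63 for Kcnj6 and -0.96 for Kcnj4. Of the values that turned above 0, only that of Kcnb2 was called. Those of Kcnj4 and Kcnh3 turned below 0 and were called in both lines. The cause of these turns was not tested. At footprint depths under 678130 counts, 42 to 45 members could be tested for genotype, and the interval lay within 1.5-fold for 1 member in the 3g line and 5 in the 16p11.2 line.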
